A study of Mus musculus with 6 samples.

Results

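The genes that move a cell through its division cycle were followed in the enhancer predictions of cultured mouse oligodendrocyte precursor cells (OPCs), the dividing cells of the brain that give rise to myelinating oligodendrocytes. A set of 36 cell cycle and DNA replication genes was chosen by name, 16 that act in G1 (D and E cyclins, their kinases, inhibitors, Rb1 and E2F factors) and 20 that act in S phase or in G2 and M phase. Of these, 30 were among the 32049 genes with a predicted element in at least 1 condition. Ccne2, E2f2, Ccnb1, Cdc20, Aurka and Top2a were in neither table.

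OPCs came from pooled brains of pups in the first postnatal week that carried Sox10-Cre/RCE in both conditions, in which Cre made under the Sox10 promoter switches on a green reporter in the oligodendrocyte lineage. The labels give the strain as C57BL/6j, while by the methods the RCE parents were of a mixed C57BL/6 and CD1 background. OPCs were isolated by this reporter or by CD140a, the product of Pdgfra. Cells grew in proliferation medium with the mitogens bFGF and PDGF-AA. From 24 h after passaging they stayed in this medium (Ctr-OPCs) or received it with IFN-γ at 100 ng/mL (IFN-γ-OPCs). The 24 h mark the start of the treatment and not its length. Each condition had 3 HiChIP libraries for H3K27ac, a histone mark of active promoters and enhancers, and the 3 were pooled into 1 prediction table. Every value is therefore 1 number per condition without a replicate error, no difference was tested, and the read depth is unknown.

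The cell cycle is driven by cyclins that switch on cyclin-dependent kinases (CDKs). In G1, D cyclins with Cdk4 or Cdk6 and then E cyclins with Cdk2 phosphorylate Rb1, which releases E2F factors to turn on the replication genes. CDK inhibitors hold this step back, and mitogens such as PDGF-AA act on OPCs largely through it. Genes of S phase load and fire replication origins, and genes of G2 and M phase condense and separate the chromosomes. The promoters of S phase genes are known for E2F sites, and those of G2 and M phase genes for CCAAT boxes and the CHR element, through which the DREAM complex and B-Myb act.

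The activity-by-contact (ABC) model gives each element near a gene the product of its activity (ATAC-seq and H3K27ac signal) and its contact with the promoter. This product added up over the elements of a gene is called the gene total here, in model units. The ABC score is the share of the gene total that 1 element holds, and a pair scoring above 0.05 was a connection. In the model the gene's own promoter counts toward the gene total, but it is not listed as a pair. A promoter activity quantile ranks a gene's promoter among all promoters from 0 to 1.

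The promoters shown first are those of Mcm5 and Mcm6, 2 subunits of the replicative helicase, of the mitotic cyclin Ccnb2 and the proliferation marker Mki67, and of the G1 gene E2f3, which held all 3 kinds of word. They are the 200 bases before a RefSeq start site (GRCm38, the mm10 build), 5′ to 3′ on the gene's strand. Capitals mark E2F words (TTTCCCGC, TTTCGCGC, TTTGCCGC or TTTGGCGC), CHR words (TTTGAA or TTCGAA) and CCAAT boxes, searched on both strands, and overlapping E2F words run together.
Mcm5 promoter, chr8:75109309-75109508, plus strand: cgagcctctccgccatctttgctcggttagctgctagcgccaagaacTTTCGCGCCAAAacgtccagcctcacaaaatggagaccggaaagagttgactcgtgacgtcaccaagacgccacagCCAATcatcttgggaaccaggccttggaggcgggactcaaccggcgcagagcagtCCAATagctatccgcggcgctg
Mcm6 promoter, chr1:128359706-128359905, minus strand: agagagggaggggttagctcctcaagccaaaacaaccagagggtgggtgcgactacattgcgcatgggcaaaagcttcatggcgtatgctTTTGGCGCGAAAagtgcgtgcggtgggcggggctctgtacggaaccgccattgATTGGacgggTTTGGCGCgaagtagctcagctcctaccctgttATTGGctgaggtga
Ccnb2 promoter, chr9:70421555-70421754, minus strand: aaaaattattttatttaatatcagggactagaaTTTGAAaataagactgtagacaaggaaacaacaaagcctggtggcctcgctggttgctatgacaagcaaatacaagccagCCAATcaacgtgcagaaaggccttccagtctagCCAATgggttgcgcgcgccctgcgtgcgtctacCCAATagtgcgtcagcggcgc
Mki67 promoter, chr7:135716380-135716579, minus strand: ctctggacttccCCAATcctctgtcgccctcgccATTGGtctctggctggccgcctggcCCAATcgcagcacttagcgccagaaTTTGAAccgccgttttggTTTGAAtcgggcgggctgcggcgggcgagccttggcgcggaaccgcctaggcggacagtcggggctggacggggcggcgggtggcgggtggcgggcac
E2f3 promoter, chr13:29986064-29986263, minus strand: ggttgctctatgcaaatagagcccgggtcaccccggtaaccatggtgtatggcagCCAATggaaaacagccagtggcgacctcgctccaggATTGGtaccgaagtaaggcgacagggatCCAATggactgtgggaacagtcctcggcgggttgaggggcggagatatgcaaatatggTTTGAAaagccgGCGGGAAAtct

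RefSeq promoters were matched for 28 of the 36 genes, 21 of them within 100 bases of the start site used by the tables or, for an unlisted gene, by GENCODE. An E2F word was found in 4 of 8 promoters of S phase genes (Mcm5, Mcm6, Mcm7 and Cdc6) and in 1.58% of 32817 RefSeq promoters. Mcm6 held 3 and Mcm5 held 2, some of them overlapping on opposite strands. Of the same 8, 6 held a CCAAT box and 2 a CHR word. Among the 9 promoters of G2 and M phase genes, all 9 held a CCAAT box and 5 held a CHR word, against 29.3% and 13.4% of all promoters. Of 11 promoters of G1 genes, 4 held a CCAAT box, 2 an E2F word and 1 a CHR word. These are matches of letters in a short window and say nothing of a factor's binding in these cells.

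Promoter activity was above the median of protein-coding genes for most genes that could be ranked. That median was 0.804 in Ctr-OPCs and 0.803 with IFN-γ, and 6 of 25 listed genes were below it in Ctr-OPCs (Cdkn1a, Ccnd2, Ccnd3, Cdk6, Cdkn1c and Bub1) and the same without Bub1, 5 of 27, with IFN-γ. In Ctr-OPCs the quantile of the 14 listed G1 genes ran from 0.608 for Cdkn1a to 0.986 for E2f3, with a median of 0.887. The 11 listed S and M phase genes ran from 0.780 for Bub1 to 0.976 for Ccna2, with a median of 0.867. In IFN-γ-OPCs the medians were 0.941 for 13 G1 genes and 0.902 for 14 S and M phase genes. The median of all target genes, non-coding ones included, was 0.688 and 0.686. D cyclins differed among themselves. Ccnd1 was at 0.934 and 0.964, Ccnd2 at 0.663 and 0.778, and Ccnd3 at 0.691 and 0.597, in Ctr-OPCs and IFN-γ-OPCs.

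Within the set, connections above a score of 0.05 were mostly those of G1 genes when contact was taken from HiChIP. In Ctr-OPCs all 12 connections were of G1 genes, held by 8 of 14 listed genes, and 0 were of the 11 listed S and M phase genes. The background was 34.3% of all 25779 target genes with at least 1 connection. In IFN-γ-OPCs 7 of 13 listed G1 genes had 10 connections, and 2 of 14 S and M phase genes, Mcm3 and Aurkb, had 3, against 35.6% of 26591 target genes. In 3 of the connections of each condition, those of Cdkn2c, 1 of E2f3 and 1 of Cdk6, the element holds a RefSeq start of its own gene, which leaves 9 connections of 7 G1 genes in Ctr-OPCs and 7 of 5 with IFN-γ. The power-law score of the tables, which takes contact from distance alone, did not leave the S and M phase genes without one. Above 0.05 it gave 15 pairs of 10 of the 14 G1 genes and 6 pairs of 5 of the 11 S and M phase genes (Mcm4, Ccna2, Cdk1, Aurkb and Plk1), against 60.1% of all target genes. In IFN-γ-OPCs these were 15 pairs of 9 of 13 G1 genes and 7 pairs of 6 of 14 S and M phase genes, against 59.8%. Over all target genes the share with a connection was lowest at the highest promoter quantiles. The counts were therefore also taken at a promoter quantile of at least 0.8. There, 5 of 9 G1 genes and 0 of 10 S and M phase genes had a connection in Ctr-OPCs, where the background was 30.4%. In IFN-γ-OPCs they were 5 of 8 and 2 of 14, where the background was 32.0%.

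**Figure D1:**
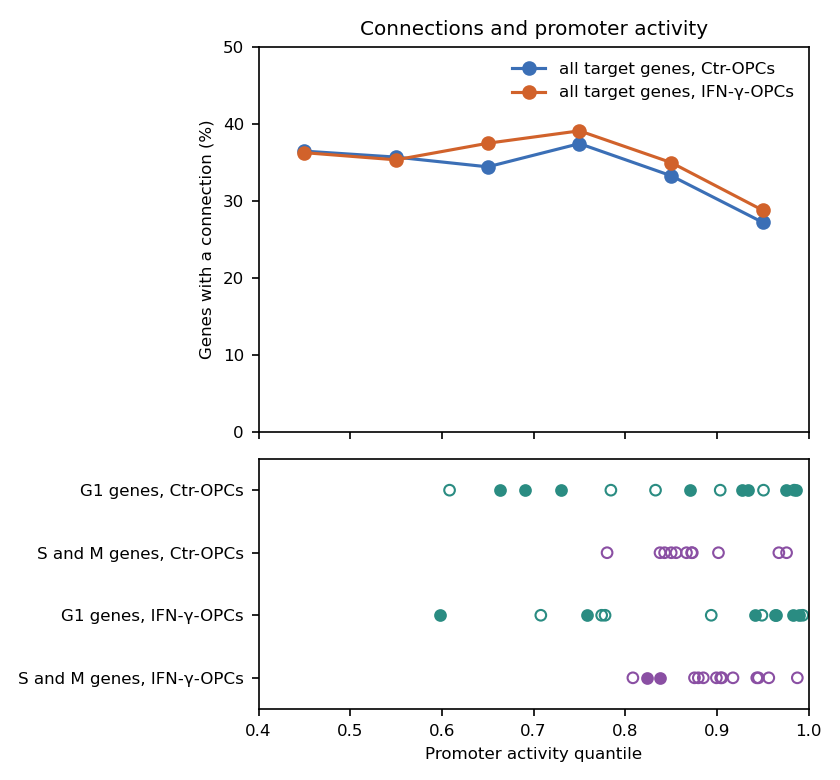
Share of all target genes with a connection (ABC score above 0.05, in percent) by promoter activity quantile in steps of 0.1 (upper panel), and the quantile of each listed G1 gene and S and M phase gene in each condition (lower panel, 1 point per gene; filled points have a connection). The share fell to 27.2% and 28.8% in the highest step, and filled points are G1 genes except for Mcm3 and Aurkb in IFN-γ-OPCs.

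The score is a share of the gene total, to which the gene's own promoter and unlisted elements also contribute. The share held by the promoter alone is not given. Its part in the few connections of S and M phase genes was therefore not tested. Listed pairs include those of Cdkn2c, E2f3 and Cdk6 whose element holds a RefSeq start of its own gene. The summed score of all listed pairs had a median of 11.1% of the gene total over G1 genes and 2.97% over S and M phase genes in Ctr-OPCs. In IFN-γ-OPCs it was 10.4% and 3.41%. The median over all target genes was 7.51% and 7.91%. Cdk6 was at the top with 43.1% and 45.4%, followed by Ccnd1 with 29.3% and 23.1%.

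**Figure D2:**
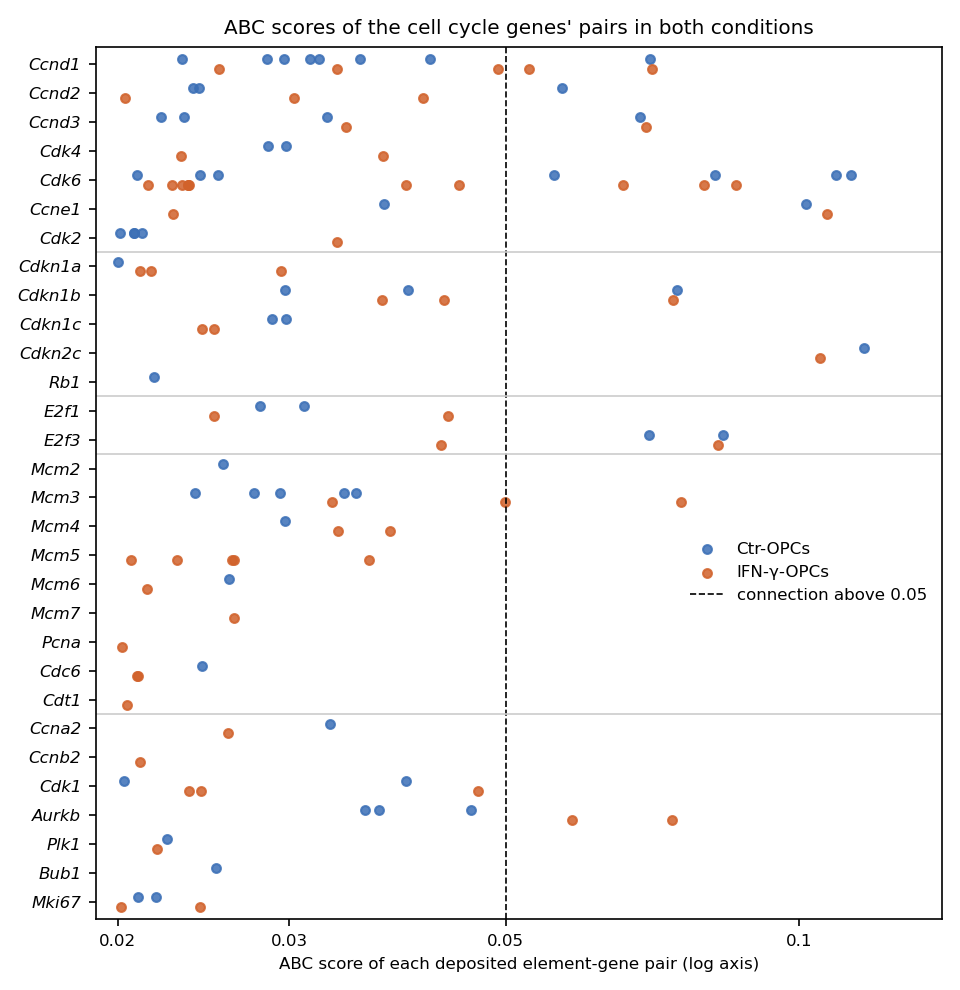
ABC score of each deposited element-gene pair (log axis) for the 30 listed genes in Ctr-OPCs (blue) and IFN-γ-OPCs (orange). Rows are grouped by role, and the dashed line marks 0.05; all points of Ctr-OPCs to the right of it are in the rows of G1 genes.

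Between the conditions, 3 of the 30 listed genes had more connections in IFN-γ-OPCs (Ccnd1, Mcm3 and Aurkb), or 10%, against 14.9% of all target genes. The 3 with fewer were Ccnd2, Cdk6 and E2f3, also 10%, against 13.0% of all. The shares are below those of all genes, and 20 of the 30 had no connection in either condition. As cells were pooled, more cells in a phase and more signal per cell cannot be told apart. With the power-law score 4 genes had more (Ccnd2, Cdk6, Mcm3 and Ccnb2) and 3 had fewer (Ccne1, E2f1 and Plk1), against 21.5% and 20.3% of all. Ccnd2 and Cdk6 changed direction, Ccnd1, Aurkb and E2f3 had equal numbers, and of the 6 genes that differed by ABC score Mcm3 alone went the same way with both scores. At a score above 0.1 no gene gained a connection and 1 lost connections.

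Among the G1 cyclins, Ccnd1 (cyclin D1, the mitogen-induced partner of Cdk4 and Cdk6) had the most elements of the D cyclins, 8 in Ctr-OPCs and 5 with IFN-γ. Its connection in both conditions was an intergenic element 1.68 kb upstream of the start site, with a score of 0.0703 in Ctr-OPCs and 0.0706 with IFN-γ. The activity of this element was 4.02 and 3.15, and its contact 0.0350 and 0.0357. Thus the score stayed level while the activity was lower by 0.35 on the log2 scale, since the gene total was lower as well. A second element, 266 kb away in an intron of Tpcn2 that also overlaps a UTR of 1810010D01Rik, scored 0.0315 in Ctr-OPCs and 0.0528 with IFN-γ. Its activity was among the highest of the set, 6.20 and 5.83, and its contact was 0.0102 and 0.0144. The pair passed 0.05 with a higher contact and a lower gene total, not with a higher activity.

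Ccnd2 (cyclin D2) had 1 connection in Ctr-OPCs, an element over a non-coding exon of Ccnd2 itself, 4.28 kb from the start site. It scored 0.0571 in Ctr-OPCs and 0.0411 with IFN-γ, with activities of 1.63 and 1.44 and contacts of 0.0413 and 0.0310. Ccnd3 (cyclin D3) kept its intronic connection 6.25 kb from the start site, at 0.0686 and 0.0696. There the activity was higher (2.36 and 2.93) and the contact lower (0.0443 and 0.0329) in IFN-γ-OPCs. Cdk4, the main partner of the D cyclins, had 2 elements and no connection, with highest scores of 0.0298 and 0.0374.

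Cdk6, the other kinase of the D cyclins, had the most connections of the set, 4 in Ctr-OPCs and 3 with IFN-γ. Both elements near the start site, 1.14 and 2.66 kb into the gene, scored 0.109 and 0.113 in Ctr-OPCs and 0.0799 and 0.0861 with IFN-γ. They share a contact value, since contacts were given in 5 kb bins, and it was 0.0259 in Ctr-OPCs and 0.0168 with IFN-γ. The farther of the 2 spans the RefSeq start of Cdk6 found nearest to the start site used by the model, 2408 bases from it. A further 2 intronic elements, 110 and 113 kb into the gene, scored 0.0820 and 0.0560 in Ctr-OPCs and 0.0237 and 0.0215 with IFN-γ. Their shared contact was 0.0276 and 0.00962, lower by 1.52 on the log2 scale, the largest difference in contact of any matched pair of the set. The SD of the log2 contact ratio over all 29858 matched pairs was 0.50. In IFN-γ-OPCs, an intronic element 175 kb into the gene had a score of 0.0659 and was not listed for Cdk6 in Ctr-OPCs, where the element itself had an activity of 0.668 against 1.08 in IFN-γ-OPCs.

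Ccne1 (cyclin E1, which activates Cdk2 at the end of G1) kept 1 intergenic connection 22.5 kb away, at 0.102 and 0.107. Its activity was 3.56 and 3.06 and its contact 0.0185 and 0.0233. Cdk2 had 4 elements in Ctr-OPCs and 1 with IFN-γ, all below 0.05. The largest score, 0.0335 in IFN-γ-OPCs, was of an element 100 kb away over a UTR of Dnajc14.

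Of the CDK inhibitors, Cdkn1b (p27, which restrains Cdk2 and is known for timing the exit of OPCs from the cycle) kept an intergenic connection 7.12 kb downstream of its start, at 0.0749 and 0.0741. The activity was 2.26 and 1.76, the contact 0.0411 and 0.0540. Cdkn2c (p18, an inhibitor of Cdk4 and Cdk6) had 1 element, at 0.116 and 0.105, over a UTR of the gene and across a RefSeq start. Its activity as deposited, 2.73 and 1.60, and its contact of 0.0351 and 0.0577 moved in opposite directions. The element was 958 and 500 bases wide, and per kb its activity was higher with IFN-γ by 0.16 on the log2 scale. Cdkn1a (p21, a target of p53) had 1 element in Ctr-OPCs and 3 with IFN-γ, and its highest score of 0.0294 was in IFN-γ-OPCs. Cdkn1c (p57) had 2 elements below 0.03 in both conditions. Rb1 was listed in Ctr-OPCs alone, with an element 149 kb away at 0.0218.

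E2f3, an E2F factor that activates replication genes, had 2 connections in Ctr-OPCs and 1 with IFN-γ. The intronic element 2.63 kb from the start scored 0.0835 in Ctr-OPCs and 0.0430 with IFN-γ, with activities of 2.39 and 1.22. The element 1.57 kb from the start, over a UTR and a RefSeq start of E2f3, scored 0.0702 and 0.0826. They shared a contact of 0.0281 and 0.0271, so the 2 moved apart by activity. The element 2.63 kb from the start was 856 and 500 bases wide. Per kb its log2 activity ratio was -0.19 against -0.97 as deposited. E2f1 had 2 elements per condition, with highest scores of 0.0310 and 0.0436.

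The S phase genes had 9 pairs in Ctr-OPCs and 16 with IFN-γ, beside 66637 and 71478 over all target genes. Of the 16, 5 were of Mcm5, which was not listed in Ctr-OPCs. Mcm3, a helicase subunit, was the only S phase gene with a connection. Its intergenic element 47.4 kb away scored 0.0294 in Ctr-OPCs and 0.0756 with IFN-γ. Activity (1.43 and 2.07) and contact (0.00881 and 0.0157) were both higher, and the log2 score ratio of 1.36 was the largest rise among matched pairs of the set that were a connection. An Mcm3 element 25.5 kb away scored 0.0342 in Ctr-OPCs and 0.0499 with IFN-γ, under the limit by a narrow margin. The gene total of Mcm3 was among the lowest of the set, 0.428 and 0.430, and nearly the same in both conditions.

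Mcm5, Mcm7, Pcna (the clamp that holds DNA polymerase on its template) and Cdt1 (which loads the helicase) were listed in IFN-γ-OPCs alone. Mcm5 had 5 elements there, with a highest score of 0.0362, and the other three had 1 each, between 0.0202 and 0.0263. Mcm2 was listed in Ctr-OPCs alone, at 0.0256. Over the set, 8 of the 30 listed genes were in 1 table alone, or 26.7%, beside 36.6% of all target genes. By role these were 5 of 9 S phase genes (55.6%), 2 of 7 genes of G2 and M phase and 1 of 14 G1 genes, and the 4 S phase genes listed with IFN-γ alone are 44.4%, beside 19.6% of all target genes. Listing begins at a score of 0.02 and at a promoter quantile of 0.4, and which of the 2 limits an absent gene missed cannot be told. Mcm4, Mcm6 and Cdc6, which recruits the helicase to origins, had 1 or 2 elements per condition, and their highest scores were 0.0381, 0.0260 and 0.0244.

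The genes of G2 and M phase had 10 pairs in each condition. Aurkb (Aurora B, the kinase that checks chromosome attachment) was the gene with 2 new connections. Its element 5.26 kb upstream scored 0.0460 in Ctr-OPCs and 0.0584 with IFN-γ, and its element 4.52 kb upstream 0.0359 and 0.0741. They shared a contact of 0.0444 and 0.0475, and the activities were 2.10 and 2.47 for the first and 1.64 and 3.13 for the second. The increase of the second, 0.94 on the log2 scale, was the largest activity rise of any matched pair of the set, and this element was also wider, 901 bases against 500. The gene total of Aurkb was 2.03 and 2.01, so the new connections came without a higher total.

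Both Aurkb elements lie over tRNA genes in RefSeq. The first holds a tRNA-Pro gene (chr11:69040385-69040456), and the second a tRNA-Asp gene (chr11:69040984-69041055) and a tRNA-Gly gene (chr11:69041278-69041349). The third Aurkb element, listed in Ctr-OPCs alone, holds 2 more (tRNA-Ser and tRNA-Trp) and overlaps 29 of the 74 bases of a tRNA-Thr gene. No other element of the set overlapped a tRNA gene, and 0.242% and 0.251% of all elements did in Ctr-OPCs and IFN-γ-OPCs. Over the 70 matched elements with a tRNA gene, the median log2 activity ratio was 0.09 (SD 0.53), and 39 were higher in IFN-γ-OPCs, against a median of -0.08 (SD 0.51) over all 19332 matched elements. tRNA genes have near-identical copies elsewhere in the genome, and how the reads of such copies were assigned was not tested.

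The remaining G2 and M phase genes had no connection. Cdk1, the kinase of mitosis, came closest, with an intronic element 1.63 kb from the start at 0.0395 in Ctr-OPCs and 0.0468 with IFN-γ. Its activity was 0.692 and 1.04 and the contact was lower by 0.22 on the log2 scale. The element was 500 and 747 bases wide, and per kb its log2 activity ratio was 0.00347 against 0.58 as deposited. Ccna2 (cyclin A2, which acts in S phase and G2) had 1 element 20.6 kb away, at 0.0330 and 0.0260. Mki67 had 2 elements per condition, with highest scores of 0.0219 and 0.0243, and Plk1, a kinase of mitotic entry, had 1, at 0.0225 and 0.0220. Ccnb2 was listed in IFN-γ-OPCs alone, at 0.0211, and Bub1, a spindle checkpoint kinase, in Ctr-OPCs alone, at 0.0252.

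The elements shown next are 4 connections outside UTRs with large differences in activity or contact, and the Ccnd1 element 1.68 kb upstream for the word it holds. Each line gives the central 300 bases of the element as placed in the IFN-γ-OPC table (GRCm38), on the plus strand. Capitals mark the word GAAANNGAA, a core of the sites of interferon regulatory factors, searched on both strands.
Aurkb element, chr11:69041204-69041503, plus strand: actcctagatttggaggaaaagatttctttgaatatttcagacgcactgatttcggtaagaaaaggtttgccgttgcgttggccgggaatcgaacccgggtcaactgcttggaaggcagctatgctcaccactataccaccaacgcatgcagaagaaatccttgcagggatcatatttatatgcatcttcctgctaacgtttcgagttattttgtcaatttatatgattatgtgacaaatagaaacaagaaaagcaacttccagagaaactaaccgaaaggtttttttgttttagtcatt
Mcm3 element, chr1:20867529-20867828, plus strand: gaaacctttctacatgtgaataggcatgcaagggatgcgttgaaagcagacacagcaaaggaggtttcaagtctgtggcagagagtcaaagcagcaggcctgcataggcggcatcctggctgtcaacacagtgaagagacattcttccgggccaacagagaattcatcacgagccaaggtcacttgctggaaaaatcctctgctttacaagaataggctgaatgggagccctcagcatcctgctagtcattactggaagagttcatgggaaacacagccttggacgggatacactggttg
Cdk6 element, chr5:3451322-3451621, plus strand: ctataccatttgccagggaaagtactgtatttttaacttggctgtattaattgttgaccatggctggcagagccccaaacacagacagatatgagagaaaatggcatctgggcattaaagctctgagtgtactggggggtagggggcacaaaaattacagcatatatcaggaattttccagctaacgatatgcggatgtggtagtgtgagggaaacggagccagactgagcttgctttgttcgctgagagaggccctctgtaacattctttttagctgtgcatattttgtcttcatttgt
E2f3 element, chr13:29983162-29983461, plus strand: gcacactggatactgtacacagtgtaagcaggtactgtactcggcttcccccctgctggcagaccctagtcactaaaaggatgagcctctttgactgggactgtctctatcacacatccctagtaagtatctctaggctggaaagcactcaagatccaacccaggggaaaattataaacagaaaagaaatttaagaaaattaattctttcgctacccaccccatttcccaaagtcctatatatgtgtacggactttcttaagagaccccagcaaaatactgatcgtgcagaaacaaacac
Ccnd1 element, chr7:144941473-144941772, plus strand: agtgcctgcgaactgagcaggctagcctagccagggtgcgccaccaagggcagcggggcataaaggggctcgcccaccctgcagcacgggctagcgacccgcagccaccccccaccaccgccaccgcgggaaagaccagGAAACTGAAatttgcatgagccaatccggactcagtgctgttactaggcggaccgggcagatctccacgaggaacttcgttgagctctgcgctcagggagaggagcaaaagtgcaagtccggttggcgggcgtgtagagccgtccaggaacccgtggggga

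Only the central 300 bases of every element were searched for the word GAAANNGAA. It was found in 6 of the 89 elements of the set, or 6.74%, against 8.17% and 10.9% of all elements in Ctr-OPCs and IFN-γ-OPCs. Of the 17 elements that were a connection in either condition, it was in the element 1.68 kb upstream of Ccnd1 alone. By role it was in 5 of 54 elements of G1 genes and 1 of 35 elements of S and M phase genes.

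Activity moved with the width given to an element in each table. The Aurkb element was 500 bases wide in Ctr-OPCs and 901 with IFN-γ, and per kb its activity was higher by 0.09 on the log2 scale, against 0.94 as deposited. The E2f3 element 2.63 kb from the start went from 856 to 500 bases, Cdkn2c from 958 to 500, Cdkn1b from 834 to 500, and Cdk6 at 110 kb from 1182 to 500. Per kb, E2f3 was lower by 0.19 on the log2 scale, and the other three were higher, by 0.16, 0.38 and 0.89. The Mcm3 element, both Ccnd1 elements and the Ccnd2 and Ccnd3 elements were 500 bases in both tables, so their activity differences came with no difference in width. Over all matched elements, the Spearman correlation of the log2 width ratio with the log2 activity ratio was 0.61 (n = 19332 elements of the same libraries), and over the 59 of the set it was 0.60. Scores were not recomputed per kb, because the widths behind the gene totals are not in the tables, and the part of width in the score differences was not tested.

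**Figure D3:**
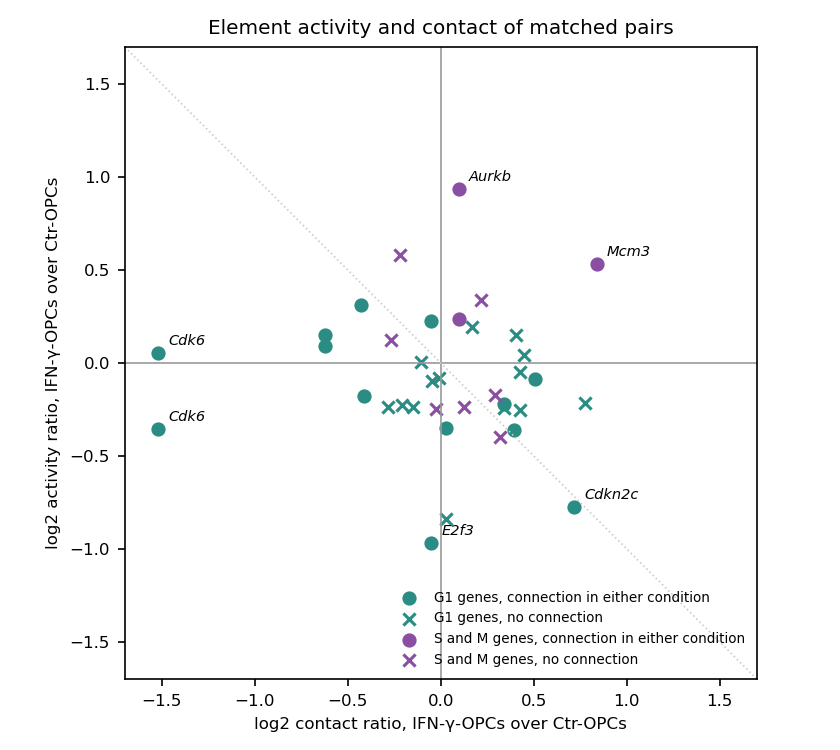
The log2 ratio of element activity against the log2 ratio of contact, IFN-γ-OPCs over Ctr-OPCs, for the 37 pairs listed in both tables, 27 of G1 genes (green) and 10 of S and M phase genes (purple). Circles are connections in either condition, the dotted line marks an unchanged product, and names mark connections beyond 0.7 on either axis. Both Cdk6 pairs at the left share 1 contact, and the Aurkb and Mcm3 pairs are above the dotted line.

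Across the 37 matched pairs of the set, the median log2 contact ratio was 0.03, and 20 were higher in IFN-γ-OPCs. It was -0.01 over 27 pairs of G1 genes and 0.11 over 10 pairs of S and M phase genes, beside 0.05 over all 29858 matched pairs. The 59 matched elements had a median log2 activity ratio of -0.13, with 22 higher and 37 lower, or 37.3% and 62.7%, beside -0.08 over all elements, of which 42.1% were higher and 57.9% lower. All 9 matched elements of the CDK inhibitors and Rb1 had a lower activity in IFN-γ-OPCs, from -0.77 to -0.02, with a median of -0.24. The 9 belong to Cdkn1a, Cdkn1b, Cdkn1c and Cdkn2c. Per kb of element 6 of the 9 were lower, beside 52.2% of all elements, and 7 were after division by table medians, beside 47.6%. Median log2 score ratios were 0.01 for pairs of G1 genes and 0.21 for pairs of S and M phase genes, beside 0.02 for all pairs.

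The gene total gives the whole input of a gene, its promoter included. It could be compared for 22 genes listed in both tables, 13 of G1 and 9 of S and M phase. The median log2 ratio was -0.03 over the 22, beside -0.07 over all 20321 genes, and 8 were above 0 and 14 below. These shares, 36.4% and 63.6%, were near those of all genes, 35.7% and 64.3%. It was -0.08 for G1 genes and -0.01 for S and M phase genes, and the second turned to 0.04 when each total was divided by the median of its table. Differences over 0.25 were counted, a limit chosen after the totals were seen. No gene of the set was higher by that much, against 7.12% of all genes. Ccnd1, Mcm4 and Cdc6 were lower by that much, 3 of 22 or 13.6%, against 9.13% of all genes. After division by the median of each table, which shifts every ratio up by 0.05, Ccna2 was higher by that much and Ccnd1 was the 1 gene of the set lower by it, beside 9.84% and 4.32% of all genes.

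Ccnd1 had the largest difference, with a gene total of 2.00 in Ctr-OPCs and 1.59 with IFN-γ, a log2 ratio of -0.33. Mcm4 followed at 0.740 and 0.604 (-0.29), and Cdc6 at 1.93 and 1.62 (-0.25). Cdkn1c was at 1.51 and 1.28 (-0.23), Ccnd3 at 1.52 and 1.38 (-0.14) and Ccnd2 at 1.18 and 1.09 (-0.12). All 3 D cyclins were thus lower in IFN-γ-OPCs, beside 64.3% of all genes, and so was Cdk2, at 1.22 and 1.13 (-0.10). These genes stayed below 0 after division by the median of each table, where the share of all genes below 0 was not counted. Ccnd2, Ccnd3 and Cdk2 differed by less than the SD over all genes, 0.19.

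The highest ratio was that of Ccna2, at 0.738 and 0.850 (0.20), followed by Cdk1 at 0.618 and 0.670 (0.12). These 2, a cyclin and a kinase that work together in G2, had no connection in either condition. Cdkn2c was at 0.825 and 0.879 (0.09), Cdkn1b at 1.24 and 1.28 (0.05), Ccne1 at 0.647 and 0.669 (0.05) and Cdkn1a at 2.15 and 2.19 (0.03). Of the 4 inhibitors with a total in both tables, 3 were above 0, while of the 7 G1 cyclins and kinases 1 was, with medians of 0.04 and -0.10, beside 35.7% of all genes above 0. Each of these 11 genes but Ccnd1 and Cdkn1c differed by less than the SD of the log2 ratio over all genes, which was 0.19.

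**Figure D4:**
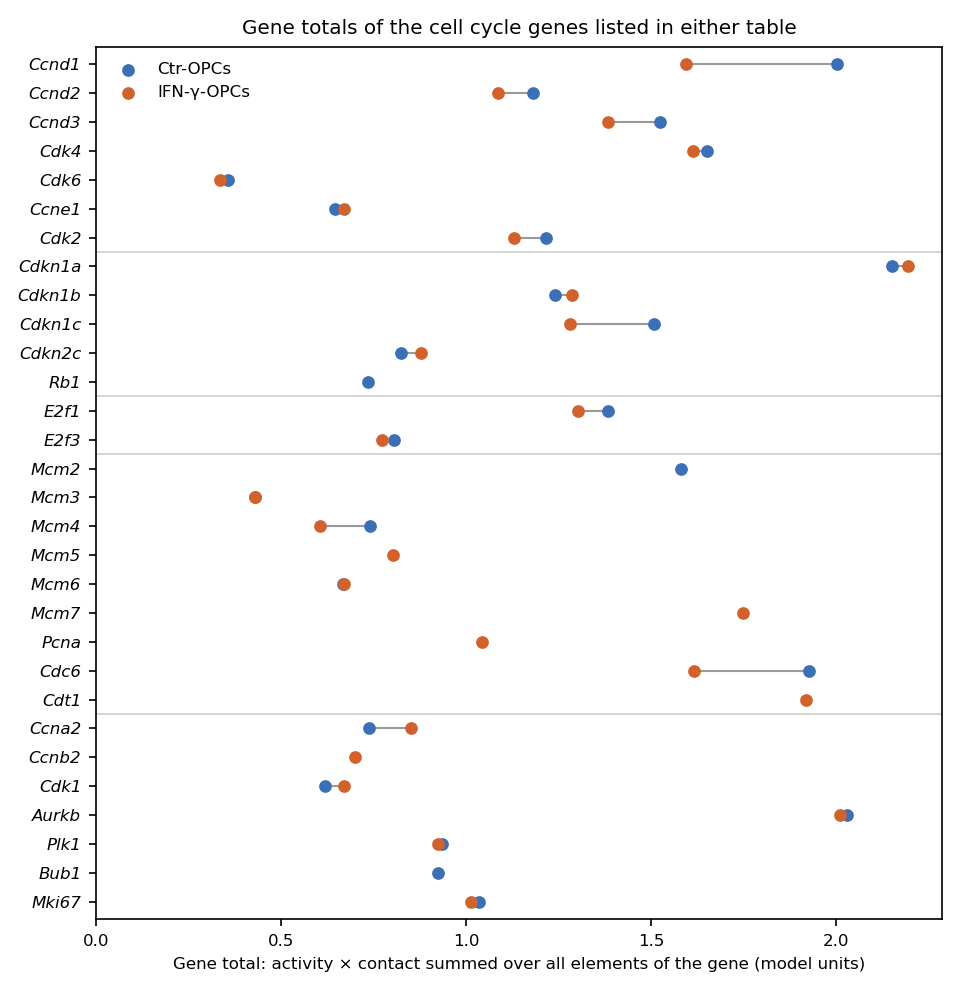
Gene total (the sum of activity times contact for a gene, model units, axis from 0) of the 30 genes listed in either table, in Ctr-OPCs (blue) and IFN-γ-OPCs (orange), grouped by role. A single point marks a gene listed in 1 condition; the longest lines to the left are those of Ccnd1, Cdc6 and Cdkn1c, and Ccna2 has the longest line to the right.

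The other genes of the pathway were taken from a list of 84: 19 further G1 regulators, 35 genes of origin licensing and replication, and 30 of mitosis. Of these, 68 had at least 1 pair. They did not divide by role as the set did. In Ctr-OPCs 4 of 13 listed G1 regulators had a connection, with 5 of 21 replication genes and 0 of 20 mitosis genes, and with IFN-γ these were 0 of 12, 5 of 27 and 5 of 17, beside 34.3% and 35.6% of all target genes. Of the 68, 6 had more and 6 fewer connections in IFN-γ-OPCs, or 8.82% each. Of 15 listed G1 regulators none had more and 4 had fewer (Rbl2, E2f5, E2f7 and Lin54), or 26.7%, beside 13.0% of all genes. Rbl2 and E2f5 were not listed in IFN-γ-OPCs at all, and the log2 gene totals of E2f7 and Lin54 differed by 0.16 and 0.32. Rbl1, E2f4, E2f6 and E2f8 had no connection in either condition. Of 24 listed mitosis genes 5 had more (Cdc25b, Wee1, Bub1b, Ttk and Cenpe) and none had fewer. The 5 are 20.8%, beside 14.9% of all genes. Each went from 0 connections to 1, and Cenpe was not listed in Ctr-OPCs at all. Their highest scores in IFN-γ-OPCs ran from 0.0525 for Wee1 to 0.0700 for Ttk. Of 29 replication genes, Rrm2 had more, and Dbf4 and Pola1 had fewer.

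Of 42 genes with a total in both tables, 6 were higher by over 0.25 on the log2 scale and 2 lower, or 14.3% and 4.76%, beside 7.12% and 9.13% of all genes, and the median was -0.11. The largest rises were those of the inhibitor Cdkn2b (0.360 and 0.473, log2 ratio 0.40), the origin subunit Orc3 (0.445 and 0.574, 0.37), the spindle checkpoint kinase Ttk (0.346 and 0.434, 0.33) and the clamp loader subunit Rfc3 (0.558 and 0.698, 0.32). The largest falls were Cdca8, a partner of Aurora B (1.47 and 1.19, -0.31), thymidine kinase Tk1 (2.37 and 1.93, -0.29), the helicase factor Cdc45 (1.19 and 1.02, -0.22) and the phosphatase Cdc25b (1.23 and 1.06, -0.21). Cdkn2a, the other INK4 inhibitor of the wider list with a total in both tables, differed by -0.15. Cdc25b gained a connection with a lower total.

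**Figure D5:**
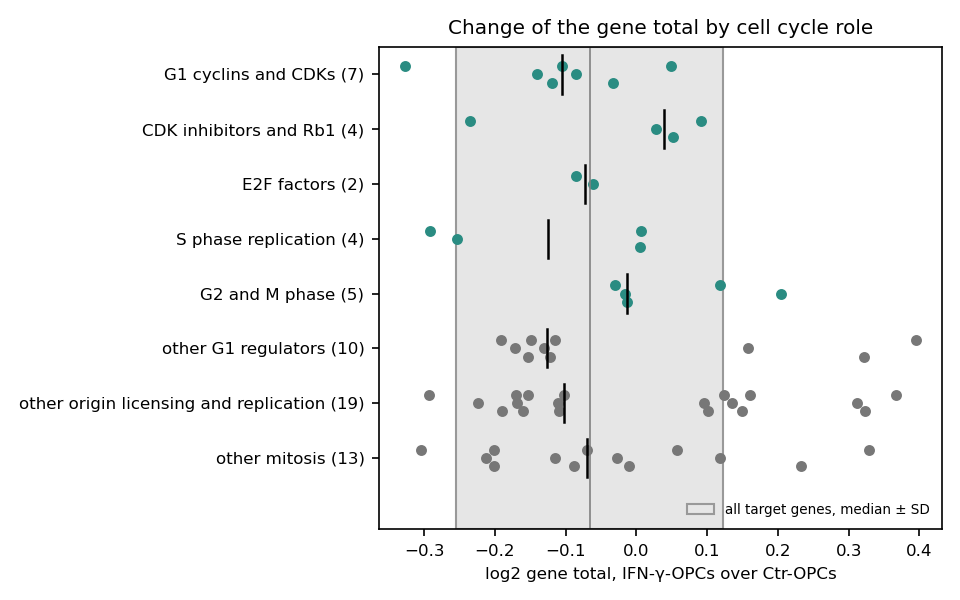
The log2 ratio of the gene total, IFN-γ-OPCs over Ctr-OPCs, for each gene listed in both tables, by role (the number of genes in brackets), for the cell cycle genes of the set (green) and the wider pathway (grey). Black bars are medians, and the band is the median ± SD over all 20321 target genes. Most points lie inside the band. Ccnd1, Mcm4 and Ccna2 of the set lie outside it, as do several genes of the wider pathway, among them Cdkn2b, Orc3, Cdca8 and Tk1.

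The labelled cell type was checked by its markers. Olig1, Olig2, Sox10, Pdgfra and Cspg4 were listed in both conditions, at promoter quantiles from 0.851 to 0.982 in Ctr-OPCs and from 0.815 to 0.994 in IFN-γ-OPCs. The log2 gene totals of all 5 were lower in IFN-γ-OPCs, with a median of -0.14 and from -0.24 for Sox10 to -0.09 for Pdgfra, where 64.3% of all genes were below 0 with a median of -0.07, and beside the -0.33, -0.12 and -0.14 of Ccnd1, Ccnd2 and Ccnd3. Of 5 microglia markers, Aif1 and Tmem119 were listed in IFN-γ-OPCs alone, as were 19.6% of all target genes, and Cx3cr1, P2ry12 and Csf1r in both, with quantiles from 0.473 to 0.782 for the 3 listed in Ctr-OPCs and from 0.471 to 0.825 for the 5 in IFN-γ-OPCs. The log2 gene totals of these 3 differed by -0.12, 0.51 and 0.10, and Csf1r went from 2 connections to 0. Of 5 astrocyte markers 4 were listed in both, at quantiles up to 0.799 and 0.783, and Aqp4 in neither. The total of Slc1a3 differed by 0.36, with 2 connections in Ctr-OPCs and 4 with IFN-γ, and those of Aldh1l1, Gja1 and Gfap by -0.11, -0.06 and -0.15. Aldh1l1 went from 1 connection to 0 and Gja1 from 0 to 1. All 5 neuron markers were listed in both, at quantiles from 0.468 to 0.842 in Ctr-OPCs, the highest that of Syt1, and from 0.506 to 0.778 in IFN-γ-OPCs. Their totals differed by -0.23 for Rbfox3 up to 0.14 for Gad1, and Snap25 went from 0 connections to 1. The quantile of Syt1 in Ctr-OPCs was thus close to the 0.851 of Pdgfra. In IFN-γ-OPCs that of P2ry12, 0.825, was above the 0.815 of Pdgfra. Markers of other cell types were not absent from the tables. The part of other cell types in the values above was not tested.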

How the data were processed

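HiChIP for H3K27ac was done on 6 libraries of cultured OPCs, 3 per condition, grouped by the treatment in the labels. According to the study's methods, HiC-Pro (version not given in the sources used here) mapped the reads to mm10, and the ABC model joined the contacts to ATAC-seq and CUT&RUN for H3K27ac. The deposited tables hold 1 row per element and target gene. The activity of an element is a signal made by the authors from coverage. The ABC score is deposited as a fraction of the gene total. Contact (5 kb bins), contact with a pseudocount, its product with activity, the power-law score and the promoter activity quantile are deposited as score values, the last 2 from 0 to 1. How activity and contact were scaled between conditions is not given in the sources used here. As tested on the tables, pairs begin at a score of 0.02 and a promoter quantile of 0.4, and hold no self-promoter pairs.

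Target genes were named by Ensembl identifier in GENCODE M21 (31937 of 32049 matched). A connection was a pair above 0.05, as in the study's methods. The gene total was recovered as activity times contact over score, which varied by at most 0.206% within a gene. Pairs and elements were matched between tables by mutual best overlap of at least 1 bp. Motifs were read from RefSeq promoters and the GRCm38 genome. Python 3.11.15, pandas 2.3.3, NumPy 2.4.6 and matplotlib 3.10.9 were used, and the matching was tested on simulated data. Because each table pools a condition, no test, interval or left-out library was possible and the depth is unknown. The genes named were all of the set, in detail those with a connection, the 6 largest rises and falls of the gene total and, of the wider pathway, the 4 largest of each. The set and the gene lists were chosen with earlier results of these data known. Alternatives were the cut-off, the power-law score, equal numbers of connections, scaling by table medians, the overlap and the width of elements.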

Additional observations from a re-analysis of the deposited data

How the results depend on the processing

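No paired analysis was possible because the 3 libraries per condition were pooled into 1 table, so no value has a replicate error and no library could be left out. Connections of the set numbered 12 in Ctr-OPCs and 13 with IFN-γ. With all deposited pairs they were 61 and 65, above a score of 0.1 there were 4 and 2, while the power-law score, which takes contact from distance alone, gave 21 and 22. Genes with more and fewer connections in IFN-γ-OPCs, 3 and 3, became 10 and 8 with all pairs, beside 42.4% and 35.7% of all genes, and 0 and 1 above 0.1, beside 3.66% and 3.20%. With the power-law score they were 4 and 3, beside 21.5% and 20.3%, but of the 6 genes Mcm3 alone kept its direction, and Ccnd2 and Cdk6 turned from fewer to more. By role, the power-law score gave 15 pairs of G1 genes and 6 of S and M phase genes in Ctr-OPCs, against 12 and 0. The same limit of 0.05 is less strict there, with 60.1% of all target genes passing beside 34.3% by ABC score. Listed G1 genes were above this power-law share, at 71.4%, and listed S and M phase genes below it, at 45.5%. With equal numbers of connections per table the same genes had more and fewer, 3 and 3, beside 13.6% of all target genes each. Over the 22 genes of the set listed in both tables they were also 3 and 3. No share of all genes was counted for that setting.

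The median log2 gene total of the set, -0.03, turned to 0.0175 when totals were divided by their table's median. That of G1 genes, -0.08, became -0.0356 so divided, -0.0570 as a sum over deposited pairs and -0.0950 with the E2F and E cyclin genes moved to the S and M phase genes. That of S and M phase genes, -0.01, turned to 0.0357 when divided and to 0.0853 as a sum over deposited pairs. The median log2 activity ratio, -0.13, became -0.0189 when scaled by table medians, -0.135 where elements overlapped by 50% of both, and turned to 0.0535 over elements of a connection. It was -0.0958 over elements whose width differed by under 10% and -0.0789 per kb of element, both chosen after seeing the data. The median log2 contact ratio, 0.03, became 0.0630 with that overlap and turned to -0.0111 over connections. These medians are close to 0, and what moves them was not tested.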
